A study of Mus musculus with 32 samples.

Results

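Collagens are the main structural proteins of the extracellular matrix. The 42 genes described here are every gene on the array whose symbol has the form Col, a number, a and a number. The rule uses the name only, but the family was chosen with earlier results of these data known. Each gene had 1 probe, out of 22206 probes and 19505 named genes measured. The annotation table used for positions lists 44 such genes, and Col7a1 and Col12a1 were not analysed here.

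The arrays came from male wild-type C57BL/6J mice, 6 to 12 weeks old and weighing 20 to 25 g. The study compared photothrombosis, a model in which light-activated clotting closes small vessels, in the cerebrum (cPT) and in the spinal cord (scPT), at 1, 3 and 7 days, with a control group for each tissue. The 8 groups were cerebral control, cerebral day 1, cerebral day 3, cerebral day 7, spinal control, spinal day 1, spinal day 3 and spinal day 7, with 4 arrays each. All groups were wild type, and the only treatment the labels name is the photothrombosis itself. The labels do not say whether control animals were operated on, or that the 4 samples of a group are 4 separate animals, so the spread behind the p-values may be partly technical.

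Fibrillar collagens (types I, II, III, V, XI, XXIV and XXVII) assemble into the cross-striated fibrils of scar, skin and bone, and type V sits at the core of fibrils of type I. Type IV forms the sheet-like network of basement membranes, which in nervous tissue surround the blood vessels and carry the multiplexins, types XV and XVIII, as well. The healthy brain and cord hold little fibrillar collagen outside the meninges and large vessels, and fibroblasts and other perivascular cells are known to lay it down in scars of the central nervous system. The members fell into 8 classes: 11 fibrillar genes, 6 of type IV, 2 multiplexins, 6 of the beaded filament type VI, 8 of the fibril-associated type (FACIT), 3 of the network types VIII and X, 4 with a transmembrane segment and 2 others.

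Upstream sequence is shown for the 3 genes with the steepest rises in the cord at day 7 for which it was at hand. The RefSeq promoter table (build GRCm38.p6) matched 34 of the 42 members. Col1a1, which rose further than Col1a2 and Col5a1, was not among them. The bases before the annotated gene start are printed from 5′ to 3′ on the plus strand, with matches to a CCAAT box (CCAAT), a GC box (GGGCGG) or a TATA box (TATAAA), on either strand, in capitals. Col1a2 is at chr6:4505368-4505617, Col3a1 at chr1:45311288-45311537 and Col5a1 at chr2:27886175-27886380.
Col1a2: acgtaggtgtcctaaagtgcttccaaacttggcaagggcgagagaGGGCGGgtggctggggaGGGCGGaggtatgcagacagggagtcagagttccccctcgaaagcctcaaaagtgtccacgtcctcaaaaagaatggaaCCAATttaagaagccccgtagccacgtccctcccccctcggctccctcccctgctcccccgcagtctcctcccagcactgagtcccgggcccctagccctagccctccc
Col3a1: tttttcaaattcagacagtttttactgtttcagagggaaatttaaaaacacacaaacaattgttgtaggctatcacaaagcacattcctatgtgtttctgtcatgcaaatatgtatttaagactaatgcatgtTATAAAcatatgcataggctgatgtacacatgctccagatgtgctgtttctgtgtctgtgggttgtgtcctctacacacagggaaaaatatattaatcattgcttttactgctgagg
Col5a1: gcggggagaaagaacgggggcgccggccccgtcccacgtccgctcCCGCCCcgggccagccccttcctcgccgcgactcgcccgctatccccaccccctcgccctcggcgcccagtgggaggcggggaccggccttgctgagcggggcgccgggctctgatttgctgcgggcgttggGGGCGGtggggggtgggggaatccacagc
No motif is common to all 3 stretches: Col1a2 carries the CCAAT box and 2 GC boxes, Col5a1 carries 2 GC boxes and Col3a1 a TATA box only. G and C make up 62% of the bases before Col1a2, 77.7% before Col5a1 and 35.2% before Col3a1. Among all 32851 promoter windows of 250 bases in the table, 33.8% hold a CCAAT box, 32.7% a GC box and 12.4% a TATA box. Among the 37 windows of collagen genes these shares are 32.4%, 56.8% and 13.5%. A match of letters is a description and not a binding site.

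Values are log2 intensities that the authors centred probe by probe, so that 0 is the median of a probe over the 16 control and day 1 arrays. Levels of different genes can therefore not be set against each other. Arrays of day 3 and of day 7 had each been centred on their own, and their offset was rebuilt per probe against the 8 controls. A day 3 or day 7 difference from control passed only where it exceeded what that rebuilding leaves uncertain, at an adjusted p (limma, Benjamini-Hochberg over all 19505 genes) under 0.05. That uncertainty was at least 0.175 at day 3 and 0.193 at day 7 on the log2 scale. The tissue labels were set beside 4 genes picked after their values were seen, so this is no independent check. Spinal controls were above cerebral controls by 5.79 for Hoxc8 and 5.56 for Hoxb9, and below them by -4.60 for Tbr1 and -3.56 for Neurod6. Markers of other cells differed between arrays: the mean log2 value of 10 skeletal muscle markers was 3.88, 3.25, 1.40 and 0.316 on the 4 spinal controls and at most 1.15 elsewhere. The spread of the collagen genes within groups (median residual SD 0.183, from 0.109 to 0.637) was near that of all genes (0.185). The titles of the spinal day 7 samples start with another letter than all others, and each group's titles run in a number range of its own, so a batch tied to these names cannot be told apart from the group.

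In the injured cord many collagen genes rose slightly at day 1 and several rose steeply at day 7. At day 1, 15 of the 42 rose, by 0.26 to 0.72, against 15.8% of all genes that rose. At day 7, 16 rose, against 14.8% of all genes, with the fibrillar genes Col1a1, Col1a2, Col3a1 and Col5a1 up by 3.50 to 4.92. In the cerebrum 2 rose at day 1 (8.91% of all genes), none at day 3 (3.27%) and 4 at day 7 (4.18%). Day 1 was tested against 0 and days 3 and 7 against a bound, so small changes could pass more easily at day 1. In all, 27 members changed in the cord on at least 1 day, against 50.3% of all genes, and 6 in the cerebrum, against 19.9%. The 14 that passed in neither tissue on any day, against 44.2% of all genes, are Col2a1, Col4a3, Col4a5, Col4a6, Col6a4, Col6a6, Col8a2, Col17a1, Col19a1, Col22a1, Col23a1, Col24a1, Col26a1 and Col27a1. In whole tissue, more cells of a type and more RNA per cell cannot be told apart, here and below.

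**Figure D1:**
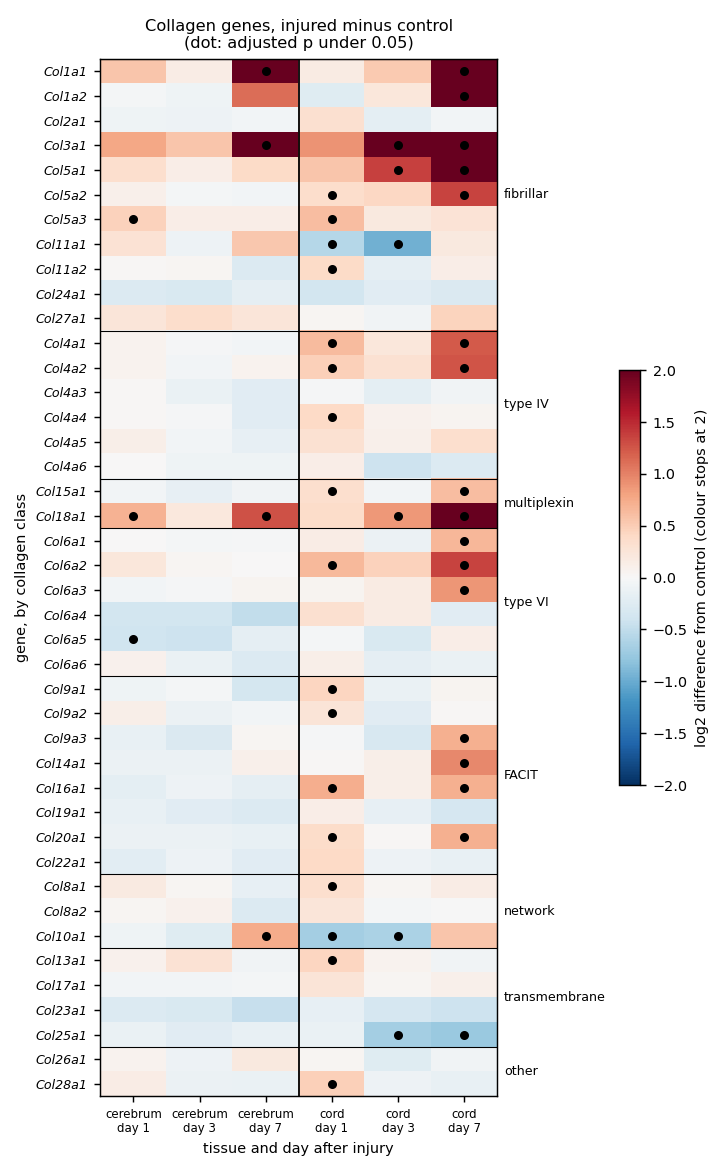
Log2 difference from the control of the same tissue (colour, which stops at 2) for each of the 42 collagen genes, by class, at days 1, 3 and 7 in cerebrum and cord; a dot marks an adjusted p under 0.05. The dots gather in the cord at day 1 (17 genes) and day 7 (17 genes). Day 1 was tested against 0 and days 3 and 7 against a bound, so their counts of dots are at unlike thresholds. Past the end of the colour scale are Col1a1, Col1a2, Col3a1, Col5a1 and Col18a1 in the cord at day 7. Col3a1 in the cord at day 3, and Col1a1 and Col3a1 in the cerebrum at day 7, are past it as well.

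At day 7 in the cord, 16 collagen genes rose and 1 fell, against 30.6% of all genes that changed either way (14.8% higher and 15.8% lower). With quantile normalization on top, 10 rose and none fell: Col6a1, Col6a3, Col14a1, Col15a1, Col16a1, Col20a1 and Col25a1 then lost their call (adjusted p from 0.0504 for Col20a1 to 1 for Col16a1). That count, like the others under alternative settings below, is of members only and is not set against all genes. Calls of all genes can move with the setting as well. In the main setting the median difference of the 42 was 0.18, against -0.10 over all genes tested. By class, 5 of 11 fibrillar genes rose, 2 of 6 of type IV, both multiplexins, 3 of 6 of type VI and 4 of 8 FACIT genes. None of the 3 network genes and none of the 4 transmembrane genes rose. The arrays of 20 members did not overlap with the controls, as was the case for 43.8% of all genes, and all 17 members that passed were among them.

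Col3a1 encodes the chain of type III collagen, the fibre of early scar. Its spinal day 7 values were 4.63, 5.50, 5.30 and 5.37, against -0.20, 1.25, -0.27 and 0.36 in the spinal controls. The groups were far apart, with the second control high among its group. The rise was 4.92 (SE 0.40), or 30.2-fold, with adjusted p = 2.19e-11. This was the largest difference of any collagen gene in any comparison with a control.

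Col1a1 and Col1a2 encode the 2 chains of type I collagen, the most abundant protein of scar and bone. Col1a1 was at 4.39, 4.82, 4.54 and 5.0 on the spinal day 7 arrays and at -0.17, 1.46, 0.12 and 0.24 on the controls. Col1a2 was at 3.49, 4.16, 3.99 and 4.27, against 0.03, 1.35, 0.01 and 0.54. For both genes every day 7 array lay above every control, and the same second control was again the high one. Col1a1 rose by 4.27 (SE 0.29; adjusted p = 4.71e-13). Col1a2 rose by 3.50 (SE 0.24; adjusted p = 2.93e-12), although its offset was known only to within 0.301 either way. Without that control array the rises were 4.62 for Col1a1, 3.79 for Col1a2 and 5.24 for Col3a1.

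Col5a1 and Col5a2 encode chains of type V collagen. Col5a1 was at 3.45, 4.10, 3.74 and 4.18 at spinal day 7 and at -0.97, 0.46, -0.64 and -0.32 in the controls. It rose by 4.23 (SE 0.28), or 18.8-fold, with adjusted p = 1.56e-13. Col5a2 rose less: its 4 arrays were at 0.91, 1.33, 1.34 and 1.42 against -0.13, -0.10, -0.18 and -0.002 in the controls. Neither gene had overlapping groups. The rise of Col5a2 was 1.35 (SE 0.11; adjusted p = 9.59e-11), and the third type V gene, Col5a3, did not pass at day 7. Col5a2 (chromosome 1, 45374331 to 45503282) lies near Col3a1 (45311538 to 45349706), whose rise was the larger. The other fibrillar genes, Col2a1, Col11a1, Col11a2, Col24a1 and Col27a1, did not pass in the cord at day 7.

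**Figure D2:**
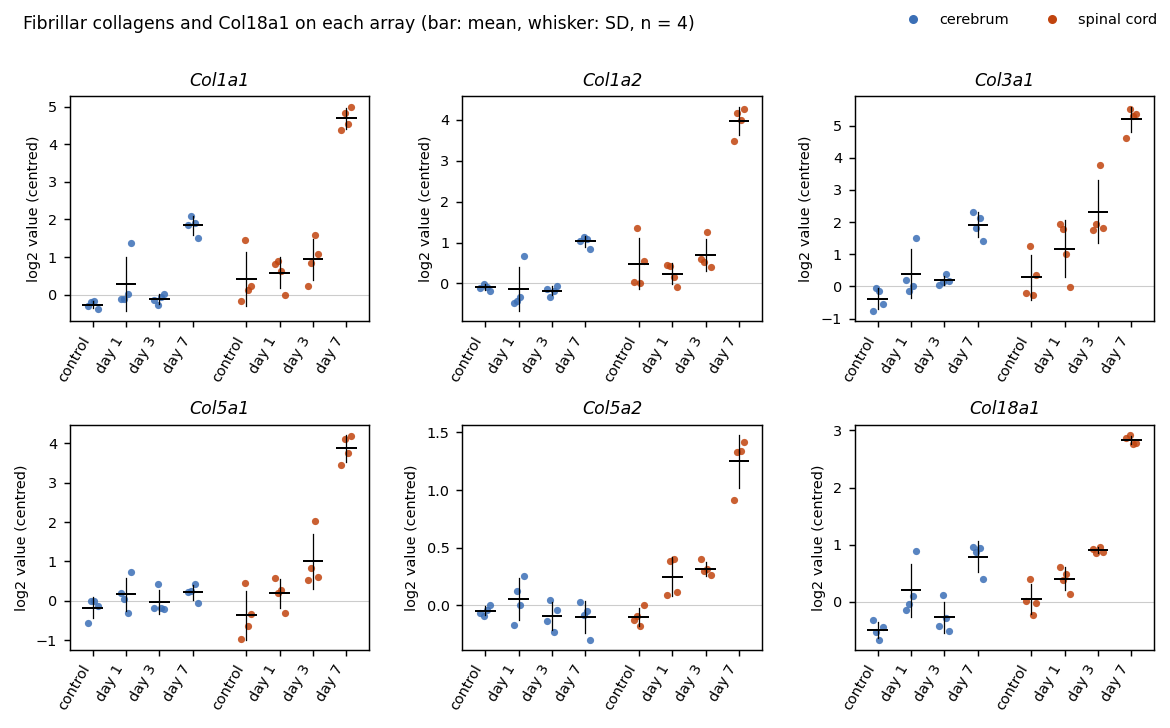
Centred log2 values of 5 fibrillar collagen genes and Col18a1 on each of the 32 arrays, by group, blue for cerebrum and orange for cord; bars are means and whiskers SD of 4 arrays. All spinal day 7 arrays stand above every other group, while Col1a1, Col1a2, Col3a1 and Col18a1 also stand above control at cerebral day 7.

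Col18a1 encodes type XVIII collagen, a proteoglycan of basement membranes whose end fragment is known as endostatin. It was at 2.87, 2.92, 2.76 and 2.78 at spinal day 7, against 0.01, 0.40, -0.22 and -0.01 in the controls. The day 7 arrays were tightly grouped (SD 0.074, n = 4) and clear of the controls. The rise was 2.79 (SE 0.17), or 6.91-fold, with adjusted p = 4.02e-14. Its relative Col15a1 rose by 0.62 (SE 0.13; adjusted p = 0.00611).

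Type IV has 6 chains that assemble in 3 combinations, of which the chains of Col4a1 and Col4a2 make the one found in nearly all basement membranes. Col4a1 was at 1.07, 0.81, 1.05 and 1.09 at spinal day 7 and at -0.24, -0.25, -0.26 and -0.14 in the controls. Col4a2 was at 0.98, 0.81, 1.06 and 1.17, against -0.20, -0.17, -0.46 and -0.18. Both genes were above all controls on every array, and their spread was narrow. The rises were near each other, at 1.23 (SE 0.09; adjusted p = 3.4e-11) for Col4a1 and 1.25 (SE 0.11; adjusted p = 6.83e-10) for Col4a2. These 2 genes lie head to head on opposite strands of chromosome 8. In the promoter table their starts are 21 bases apart (11312826 for Col4a1 and 11312805 for Col4a2, GRCm38.p6). The gene annotation places the start of Col4a1 at 11312889, and by either position the 2 genes overlap. Col4a3, Col4a4, Col4a5 and Col4a6 did not pass at day 7. Col4a3 (82586921 to 82722059) and Col4a4 (82448419 to 82587034) also overlap at their ends, on chromosome 1. Col4a5 and Col4a6 are another pair with opposed starts, 1343 bases apart on chromosome X in the promoter table. Col4a5 and Col4a6 differed by 0.33 and -0.28 from control.

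**Figure D3:**
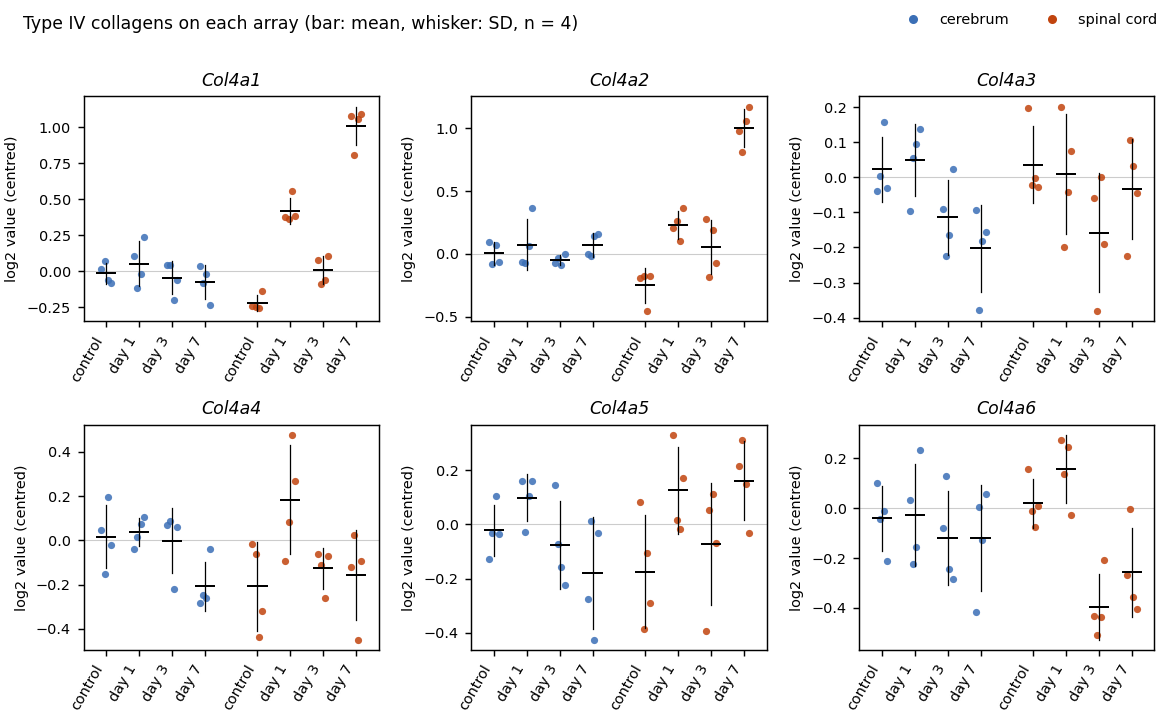
Centred log2 values of the 6 type IV collagen genes on each of the 32 arrays, by group; bars are means and whiskers SD of 4 arrays, and each panel has its own scale. Col4a1 and Col4a2 rise in the cord at day 1, lie lower at day 3 and are highest at day 7; the cerebral arrays of both genes lie between -0.24 and 0.37 throughout.

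Type VI collagen forms beaded filaments next to basement membranes, from a chain of Col6a1, one of Col6a2 and one of Col6a3, 4, 5 or 6. Col6a2 was at 1.02, 1.21, 1.09 and 1.24 at spinal day 7 and between -0.47 and -0.01 in the controls. It rose by 1.36 (SE 0.14; adjusted p = 3.07e-08). Col6a3 rose by 0.88 (SE 0.11; adjusted p = 1.62e-06) and Col6a1 by 0.67 (SE 0.13; adjusted p = 0.00251). The genes of the alternative chains, Col6a4, Col6a5 and Col6a6, did not pass.

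FACIT collagens attach to the surface of fibrils. Of these, Col14a1 rose by 0.96 (SE 0.14; adjusted p = 1.67e-05), Col16a1 by 0.72 (adjusted p = 0.00826), Col9a3 by 0.71 (adjusted p = 0.000187) and Col20a1 by 0.70 (adjusted p = 0.00263). Col14a1 was at 0.74, 1.16, 1.00 and 1.51 at day 7 against -0.09, 0.43, 0.01 and 0.23 in the controls. Col9a3 had the closest replicates, at 0.58, 0.64, 0.56 and 0.61. Neither gene overlapped with its controls.

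The single collagen gene that fell in the cord at day 7 was Col25a1, a transmembrane collagen made by neurons. It was at -1.09, -0.62, -0.72 and -0.60, below all controls (0.05, -0.15, 0.04 and 0.004). It fell by 0.74 on the log2 scale (SE 0.11; adjusted p = 0.000119), and by 0.67 at day 3 (adjusted p = 0.000963). On the same day 7 arrays 5 of 6 neuronal markers fell; their mean ran from -1.65 to -0.843, against -0.00848 to 0.201 in the controls, and their part in the fall of Col25a1 was not tested. At day 3 that mean ran from -0.488 to -0.00982.

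At day 3 fewer members passed in the cord, 3 higher and 3 lower, against 18.9% of all genes changed (9.88% higher and 8.98% lower). Day 3 was tested against a bound and day 1 against 0, so their counts are at unlike thresholds. With the offset taken as exact, more members passed at day 3, as given below. Col3a1 was at 1.77, 1.96, 3.78 and 1.81, and Col5a1 at 0.52, 0.83, 2.03 and 0.62. In both genes the third array was well above the other 3, and all 4 were above the controls. Col3a1 rose by 2.04 (SE 0.40; adjusted p = 0.00142), and by 1.56 without the third array. Col5a1 rose by 1.37 (SE 0.28; adjusted p = 0.00103), and by 1.03 without it. Col18a1 was at 0.92, 0.86, 0.97 and 0.88, above all controls, and rose by 0.86 (SE 0.17; adjusted p = 0.0016).

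Type I collagen had not passed by then. At day 3, Col1a1 differed from control by 0.53 (SE 0.29; adjusted p = 0.496) and Col1a2 by 0.22 (SE 0.24; adjusted p = 0.821). Their 4 arrays overlapped with the controls, whose second array was at 1.46 and 1.35. From day 1 to day 7 Col1a1 rose by 4.11 and Col1a2 by 3.74, both with all arrays apart. In that comparison 15 members were higher and 2 lower, against 25.9% of all genes changed (13.3% higher and 12.6% lower). Besides Col25a1 (-0.61), the other one lower at day 7 than at day 1 was Col28a1, by -0.63.

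The 3 genes that fell at spinal day 3 were Col11a1 by 0.96 (SE 0.17; adjusted p = 0.000611), Col25a1 and Col10a1 by 0.63 (SE 0.18; adjusted p = 0.0456). The call of Col10a1 was lost with any 1 of 6 arrays left out (adjusted p up to 0.12). Col11a1, a minor fibrillar chain best known from cartilage, was at -0.94, -0.14, -0.02 and 0.03 against 1.09, 0.45, 0.55 and 0.70 in the controls. The groups did not overlap, and the first day 3 array lay lowest. It is also the array that limma's array weights rank lowest (0.225). At day 7 Col11a1 was back at 0.93, 0.94, 0.57 and 1.14 and did not pass against control (0.20, SE 0.17; adjusted p = 0.801). Col10a1, the collagen of growing cartilage, was likewise at -0.36 to 0.005 at day 3, between 0.26 and 0.64 in the controls, and at 0.80 to 1.51 at day 7 (difference 0.55, adjusted p = 0.0842). Of the 10 cartilage and bone markers, 3 fell and none rose at day 3, none passed at day 1, and their mean ran from -0.198 to 0.0204 at day 3 against 0.138 to 0.261 in the controls. Their part in these values was not tested.

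At spinal day 1 the pattern was another: many small rises and no large one. Of the 42 genes 15 rose and 2 fell, against 31.9% of all genes changed (15.8% higher and 16.1% lower), and the median difference was 0.28 against 0.02 over all genes. The rises were 3 of 11 in the fibrillar class, 3 of 6 in type IV and 4 of 8 in the FACIT class. The largest was Col16a1, at 1.25, 0.78, 1.09 and 1.41 against 0.55, 0.15, 0.52 and 0.41. It rose by 0.72 (SE 0.17; adjusted p = 0.0014).

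Col6a2 followed with 0.65 (SE 0.14; adjusted p = 0.000791) and Col4a1 with 0.64 (SE 0.09; adjusted p = 3.17e-06). Col4a1 was at 0.38, 0.36, 0.55 and 0.38 on the day 1 arrays, all above the controls. Col4a2 was at 0.21, 0.26, 0.10 and 0.37 and rose by 0.48 (SE 0.11; adjusted p = 0.000877). Both were lower at day 3, at -0.08 to 0.11 for Col4a1 and -0.18 to 0.28 for Col4a2, and neither passed then (adjusted p = 0.59 and 0.369). A bound for the offset applies at day 3 and not at day 1, and the day 3 arrays of Col4a1 still lay above all controls.

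The other rises at day 1 were Col5a3 (0.61), Col28a1 (0.48), Col13a1 (0.43), Col9a1 (0.43), Col4a4 (0.39), Col11a2 (0.38), Col20a1 (0.37), Col5a2 (0.35), Col15a1 (0.34), Col8a1 (0.34) and Col9a2 (0.26). Col10a1 fell by 0.68 and Col11a1 by 0.58. Of the 17 calls at spinal day 1, 10 were lost when some single array was left out: Col4a4, Col5a2, Col8a1, Col9a1, Col9a2, Col11a1, Col11a2, Col13a1, Col15a1 and Col20a1, with adjusted p up to 0.169 (Col15a1). All 10 skeletal muscle markers fell between the spinal controls and day 1, and their part in these small differences was not tested. Without the second spinal control Col9a1 came to 0.25 and no longer passed (adjusted p = 0.0894). Without the first, Col11a1 came to -0.45 (adjusted p = 0.0591). With only the third and the fourth control, which had the lower muscle scores, 9 members rose and 1 fell, and with only the first and the second 6 rose and 2 fell. At day 7 the same choices of control left 15 higher and 1 lower in both cases. The members that led at day 7 did not pass at day 1: Col3a1 was at 1.93, 1.79, 1.00 and -0.01, a difference of 0.89 (SE 0.40; adjusted p = 0.0902).

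The comparisons of the 3 days share the spinal controls. Col5a2 differed from them by 0.35 at day 1, 0.42 at day 3 (adjusted p = 0.0695) and 1.35 at day 7, and Col6a2 by 0.65, 0.46 (adjusted p = 0.112) and 1.36. Both genes had every day 3 array above all controls, where the bound for the offset also has to be passed.

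In the cerebrum at day 7, 4 members rose and none fell, against 6.02% of all genes changed (4.18% higher and 1.84% lower), and the median of the 42 was -0.06 against -0.05 over all genes. Col3a1 was at 2.31, 1.82, 2.12 and 1.43 against -0.77, -0.05, -0.14 and -0.54 in the cerebral controls. Col1a1 was at 1.84, 2.10, 1.91 and 1.51 against -0.31, -0.19, -0.17 and -0.37. Both were clear of their controls. Col3a1 rose by 2.29 (SE 0.40), or 4.89-fold (adjusted p = 0.000378), and Col1a1 by 2.10 (SE 0.29), or 4.29-fold (adjusted p = 1.62e-05). These rises include the rebuilt offset of the day 7 arrays, 1.34 for Col3a1 and 1.49 for Col1a1. They therefore rest on the inferred centring rule.

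Col18a1 was at 0.96, 0.87, 0.95 and 0.39 at cerebral day 7, with the fourth array apart, against -0.32, -0.53, -0.66 and -0.44. It rose by 1.28 (SE 0.17; adjusted p = 1.66e-05). Col10a1 rose by 0.75 (SE 0.18; adjusted p = 0.0398), but the fourth day 7 array (0.24) lay within the controls (-0.45 to 0.25), and leaving out any 1 of 6 arrays ended the call (adjusted p up to 0.201). Col1a2 was at 1.05, 1.12, 1.09 and 0.85, all above the controls (-0.17 to -0.01), yet its difference of 1.12 did not pass (adjusted p = 0.083). Its offset is the least certain, and the bound it was tested against was 0.494. The rebuilt day 7 offsets, 0.399 for Col18a1, 0.612 for Col10a1 and 0.945 for Col1a2, are part of the differences in this paragraph.

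None of the 6 type IV genes passed in the cerebrum on any day. At day 7 Col4a1 differed from control by -0.06 (95% interval -0.44 to 0.32, the uncertainty of the offset included) and Col4a2 by 0.07 (-0.35 to 0.48). Col5a2 and Col6a2, which rose in the cord, were at -0.05 (-0.46 to 0.36) and 0.01 (-0.47 to 0.49). Col5a1 was at 0.24, 0.25, 0.42 and -0.04, a difference of 0.38 (adjusted p = 0.898).

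At cerebral day 3 no member passed with limma, against 5.81% of all genes (3.27% higher and 2.54% lower), and 0 had an unadjusted p under 0.05; with the rebuilt offset taken as exact, 2 were lower. The largest difference was that of Col3a1, 0.56 (SE 0.40; adjusted p = 0.966). At cerebral day 1, 2 rose and 1 fell, against 17.1% of all genes changed (8.91% higher and 8.22% lower). Col18a1 was at -0.14, -0.03, 0.11 and 0.88 and rose by 0.69 (SE 0.17; adjusted p = 0.00414). Col5a3 rose by 0.45 (adjusted p = 0.00818) with overlapping arrays. Col6a5 fell by 0.40 (adjusted p = 0.0402), and did not pass when arrays were scaled to their 75th percentile (-0.37, adjusted p = 0.0595) or with any 1 of 7 arrays left out (up to 0.101).

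The fourth cerebral day 1 array stood apart from the other 3 in several fibrillar genes. It was at 1.38 in Col1a1, 1.52 in Col3a1, 0.68 in Col1a2 and 0.72 in Col5a1, where the other 3 ranged from -0.12 to 0.01, -0.14 to 0.20, -0.47 to -0.33 and -0.29 to 0.20. Its mean of 9 fibroblast markers was 0.338, the highest of its group. Neither Col3a1 (0.77, adjusted p = 0.2) nor Col1a1 (0.55, adjusted p = 0.21) passed at day 1. From day 1 to day 7 in the cerebrum Col1a1 (1.55) and Col10a1 (0.83) rose and no member fell, against 2.46% of all genes changed (1.34% higher and 1.12% lower). The rebuilt day 7 offsets, 1.49 for Col1a1 and 0.612 for Col10a1, are part of these differences. Without the fourth day 1 array, 4 members rose. Col10a1 no longer passed in this comparison with any 1 of 7 arrays left out (adjusted p up to 0.148).

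The difference between the tissues was tested directly, as the spinal response minus the cerebral response; in this quantity the rebuilt offset drops out. At day 7 it was above 0 for 17 members and below 0 for 1, against 27.6% of all genes either way (13% above and 14.6% below). The median of the 42 was 0.29, against -0.01 over all genes. The fibrillar genes led, though Col1a1 and Col3a1 changed sign under quantile normalization as given below, with Col5a1 at 3.85 (SE 0.39; adjusted p = 2.46e-08), Col3a1 at 2.63 (SE 0.57; adjusted p = 0.000707), Col1a2 at 2.38 (SE 0.33; adjusted p = 2.71e-06) and Col1a1 at 2.17 (SE 0.41; adjusted p = 0.000169).

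The next were Col18a1 at 1.51, Col5a2 at 1.40, Col6a2 at 1.35, Col4a1 at 1.29 and Col4a2 at 1.19. In type IV, Col4a5 also passed (0.49, adjusted p = 0.0304), though it passed in neither tissue alone and was lost with any 1 of 7 arrays left out (adjusted p up to 0.0828). Col25a1 was the one below 0 (-0.60, adjusted p = 0.00502). Col10a1, which passed at day 7 in the cerebrum and not in the cord, did not pass this test (-0.20, adjusted p = 0.627; 95% interval -0.72 to 0.32). When the arrays, already centred per probe, were quantile normalised on top, 7 members were above 0 and 2 below by the test. In that setting 3 genes reversed without passing, Col1a1 to -0.37, Col18a1 to -0.06 and Col3a1 to -0.04. Under scaling to the 75th percentile the counts were again 17 and 1.

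**Figure D4:**
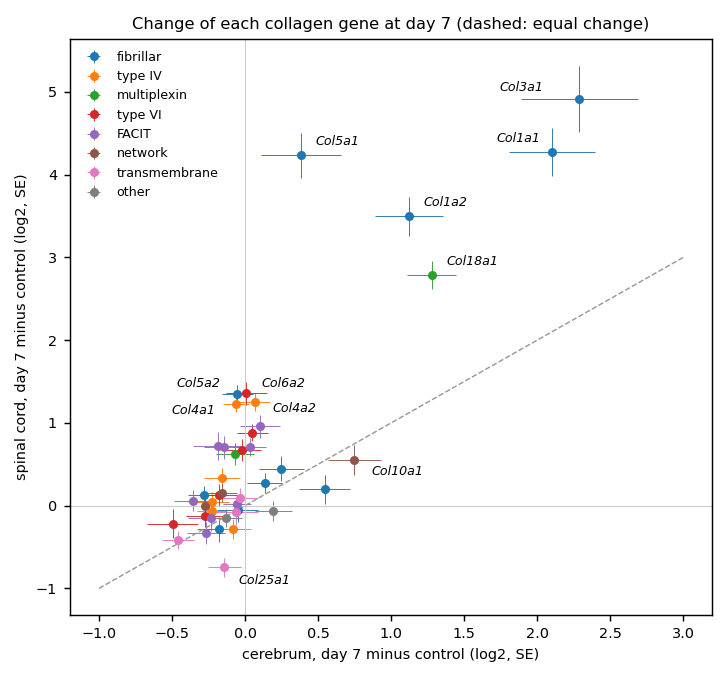
Log2 difference from control at day 7 in the cerebrum (horizontal) and the cord (vertical) for the 42 collagen genes, coloured by class, with SE bars; the dashed line marks equal change. Col1a1, Col3a1 and Col18a1 lie high on both axes, whereas Col5a1 (4.23 in the cord, 0.38 in the cerebrum), Col5a2, Col6a2, Col4a1 and Col4a2 lie high in the cord and near 0 in the cerebrum.

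The members that rose in both tissues at day 7 were Col1a1, Col3a1 and Col18a1, which are 3 of the 4 in the cerebrum and 3 of the 16 in the cord. At day 3 the tissue difference passed for Col5a1 (1.24), Col5a2 (0.46) and Col11a1 (-0.86), against 9.27% of all genes (4.08% above 0 and 5.19% below). All 3 were lost when some single array was left out (adjusted p up to 0.109), and the count moved with the scaling: under 75th percentile scaling none was above 0 and 2 were below, and without the third spinal day 3 array Col5a1 came to 0.89 (adjusted p = 0.108). At day 1 it passed for Col16a1 (0.92), Col4a1 (0.57) and Col11a1 (-0.87), against 11.3% of all genes (4.7% above 0 and 6.58% below), and 6 members passed without the fourth cerebral day 1 array.

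Before injury the tissues differed in 8 members, 5 higher and 3 lower in spinal than in cerebral controls, against 34.8% of all genes (17.2% higher and 17.6% lower). Col11a1 was at 1.09, 0.45, 0.55 and 0.70 in the cord and -0.54, -0.62, -0.57 and -0.75 in the cerebrum. It was higher by 1.32 (SE 0.17; adjusted p = 2.51e-07), and no arrays overlapped. Col16a1 (0.66), Col27a1 (0.54), Col18a1 (0.53) and Col10a1 (0.52) were also higher, and Col6a4 (-0.78), Col17a1 (-0.39) and Col9a3 (-0.31) lower. Type I, III and IV genes did not differ by the test. Without the first spinal control 12 members passed. Without the second, 3 members were higher and 2 lower, and Col18a1 did not pass (0.41, adjusted p = 0.0706). Col9a3, Col10a1 and Col17a1 were also lost without some single array (adjusted p up to 0.162).

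Fibroblast markers varied between the spinal arrays, controls included. The mean of 9 such markers was -0.685, 2.20, -0.762 and 0.83 on the spinal controls, 1.70, 1.62, 0.918 and 0.0489 at day 1, 1.53 to 2.12 at day 3 and 1.69 to 3.17 at day 7. On the cerebral arrays it ran from -0.492 to 0.338 in all groups. Within their groups, the second control and the third day 3 array were highest in this mean and in Col3a1, and the fourth day 1 array and the first day 7 array were lowest in both. As values are centred, it cannot be read from them whether a marker was absent. At spinal day 7, 6 of 9 fibroblast markers rose, led by Lum (4.06), Islr (3.80) and Fbln1 (3.51), against 2 of 9 in the cerebrum; of all genes 14.8% rose and 15.8% fell in the cord and 4.18% rose in the cerebrum. Of the pericyte markers 4 of 8 rose and 1 fell, of vascular smooth muscle 3 of 5 rose, of endothelium 4 of 10 rose and 1 fell, and of Schwann cells 1 of 5 rose. The mean of the 5 Schwann cell markers was -0.218, 0.949, -0.291 and 0.302 on the spinal controls. It was 1.06, 1.07, 0.677 and 0.0568 at day 1, 0.52 to 1.1 at day 3 and -0.117 to 0.386 at day 7. The mean of the pericyte markers was -0.205 to 0.603 on the spinal controls and 1.44 to 1.61 at day 7, and that of smooth muscle -0.302 to 0.782 and 1.92 to 2.28. Both means join genes that rose with genes that did not. Anpep rose most among the pericyte markers, and Tagln and Acta2 rose most among those of smooth muscle. Pdgfrb, the receptor that marks pericytes and fibroblasts of vessels, rose by 2.74, less than Anpep. All 7 microglia and macrophage markers rose at day 7 in both tissues; their mean was 3.10 to 3.65 in the cord and 1.41 to 2.01 in the cerebrum. The part of any of these in the collagen values was not tested.

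**Figure D5:**
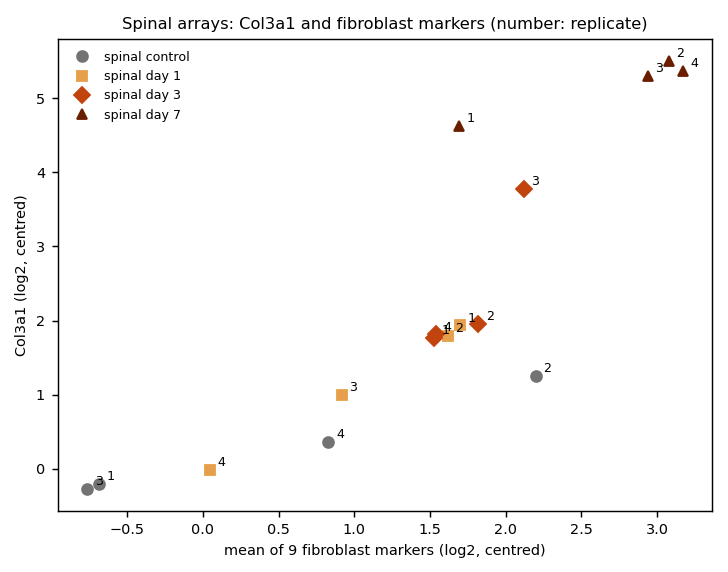
Col3a1 against the mean of 9 fibroblast markers on the 16 spinal arrays (both centred log2), with the replicate number at each point. The second spinal control lies at 2.20 on the marker axis and 1.25 in Col3a1, to the right of every day 1 and day 3 array, and the day 7 arrays lie highest in Col3a1.

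Lists of genes that make, process or bind collagen were set beside the same shares of all genes at day 7, 14.8% higher and 15.8% lower in the cord and 4.18% and 1.84% in the cerebrum. The lists were chosen with earlier results of these data known, so this is no independent comparison. Of 17 enzymes and chaperones of collagen synthesis and export 13 rose and 1 fell. They were led by Crtap (3.90), a subunit of the prolyl 3-hydroxylase complex, Plod2 (3.15), a lysyl hydroxylase, and Serpinh1 (2.88), the collagen chaperone Hsp47. In the cerebrum 5 of the 17 rose, with Crtap at 1.75 and Serpinh1 at 1.58. Of 12 genes of procollagen processing and cross-linking 7 rose and 1 fell in the cord, led by the lysyl oxidases Loxl1 (3.70), Loxl3 (3.13) and Lox (2.27), and 3 rose in the cerebrum, among them Loxl1 (1.80) and Sparc (1.47).

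Collagen receptors rose in 7 of 9 cases in the cord, with Mrc2 (2.89), which takes up collagen for breakdown, Ddr2 (2.72), a receptor kinase for fibrillar collagen, and the integrin chain Itgb1 (2.31). In the cerebrum 1 of 9 did, Lair1 (0.81). Of 9 matrix proteins that bind to fibrils 7 rose in the cord, led by Postn (5.83), Tnc (4.77) and Thbs1 (4.49), and 6 in the cerebrum, led by Postn (3.06), Lum (2.21, also in the fibroblast list) and Fn1 (2.11). Of 14 laminins, nidogens and other basement membrane genes 9 rose in the cord, led by Nid1 (2.29), Nid2 (2.20) and Hspg2 (1.94), and 1 in the cerebrum, Nid1 (2.07). Of 10 genes of the TGF-beta pathway, a main inducer of collagen genes, 4 rose in the cord, led by Tgfb1 (3.25) and Tgfbr2 (3.19), and 3 in the cerebrum.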

How the data were processed

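The table of values was deposited by the authors as log2 values of 22206 probes on 32 arrays (10 ng of total RNA, biotin label, per the labels); no source used here gives the array background correction or normalization. The values show that the authors centred each probe: the control and day 1 arrays have a joint median of 0 in 100% of probes, and day 3 and day 7 arrays were centred apart. Among probes that could tell, 86.8% (day 3) and 86.4% (day 7) matched centring together with the 8 controls, against 54.2% to 70.1% for other partners. The offset was rebuilt per probe from that rule and was fixed to a single value for 32 (day 3) and 33 (day 7) of the 42 collagen probes; for the others the middle of its range was used. Symbols come from the platform annotation (19572 probes with 1 symbol) and probes of a gene were averaged.

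One limma fit (limma 3.58.1, R 4.3.3) held 8 group means, with 24 residual degrees of freedom. Differences across the separately centred arrays were tested against a bound, the half-width of the offset range plus 3 times the processing noise (0.175 and 0.193); the others were tested against 0. Calls are adjusted p under 0.05 over 19505 genes. The script was tested on simulated data. These were centred by the same rule, so that test cannot show whether the rule holds for the authors' values. Members, classes and gene lists were chosen with earlier results of these data known. Every collagen gene may be named; other genes only as the up to 3 largest changes past the test per list and comparison. Alternatives covered normalization, offset, array weights, variance prior, filters, controls and leaving out each array.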

Additional observations from a re-analysis of the deposited data

Results flagged for a closer look

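Sets of 4 arrays were looked at only where a member passed and its arrays did not overlap with the controls. In these 70 sets, 8 single arrays lay apart from the other 3 by Dixon's criterion, which flags about 1 in 20 sets by chance. They were the fourth cerebral day 7 array in Col18a1 (0.394), the third spinal day 1 array (0.554), the fourth spinal control (-0.139) and the second spinal day 7 array (0.807) in Col4a1, the third spinal control in Col4a2 (-0.455), the third spinal day 3 array in Col3a1 (3.78), the second spinal control in Col9a3 (-0.417) and the second spinal day 7 array in Col20a1 (0.723).

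The spinal response differed from the cerebral response, by the limma test of the difference itself, for 24 pairs of gene and day. Of all genes 11.3% differed in this test at day 1, 9.27% at day 3 and 27.6% at day 7. At day 1 the members were Col4a1 (0.574), Col16a1 (0.916) and Col11a1 (-0.872). At day 3 they were Col5a1 (1.24), Col5a2 (0.464) and Col11a1 (-0.862). At day 7, among fibrillar genes, they were Col5a1 (3.85), Col3a1 (2.63), Col1a2 (2.38), Col1a1 (2.17) and Col5a2 (1.40). In basement membrane genes they were Col4a1 (1.29), Col4a2 (1.19), Col4a5 (0.492), Col18a1 (1.51) and Col15a1 (0.693). In type VI they were Col6a2 (1.35), Col6a3 (0.832) and Col6a1 (0.693). In the FACIT class they were Col16a1 (0.904), Col14a1 (0.858), Col20a1 (0.845) and Col9a3 (0.677), and the single one below 0 was Col25a1 (-0.603).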

How the results depend on the processing

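Counts under other settings, here and above, are of members only. They are not set against all genes, whose calls can move with the setting as well. The number of collagen genes called at spinal day 7 was 17, and 17 to 18 when any 1 array was left out. With quantile normalization on top the count at spinal day 7 was 10. The tissue difference at day 7 fell from 18 to 9, with Col1a1 (-0.365), Col18a1 (-0.064) and Col3a1 (-0.045) turned in sign and not passing. That setting was applied to values already centred per probe, and it gives all arrays the same distribution of such values. The cause of the turned signs was not tested. The same setting gave 3 in place of 6 at spinal day 3, 0 in place of 3 for the tissue difference at day 3, 4 in place of 2 from day 1 to day 7 in the cerebrum and 8 in place of 17 in the cord. Taking the rebuilt offset as exact, with no bound, gave 2 in place of 0 at cerebral day 3, 9 in place of 4 at cerebral day 7, 13 in place of 6 at spinal day 3, 6 from day 1 to day 7 in the cerebrum and 29 in the cord. The values as deposited, with no offset, gave 2 at cerebral day 7 (1 higher, 1 lower), 11 at spinal day 3 (7 higher, 4 lower) and 0 from day 1 to day 7 in the cerebrum.

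At spinal day 1 the count of 17 became 8 with the first 2 spinal controls, 10 with the last 2, and 9 when only genes of above-median SD were tested, which leaves out members. With the first 2 cerebral controls it was 0 in place of 3 at cerebral day 1. The tissue difference at day 1 rose from 3 to 5 with array weights. At day 3 it was 1 with the robust prior, 1 with only the compared groups, 0 with the first 2 and 1 with the last 2 cerebral controls and 1 with the first 2 spinal controls. From day 1 to day 7 in the cerebrum it was 5 with array weights and 4 with only the compared groups. Between controls it was 4 with the last 2 cerebral and 5 with the last 2 spinal controls, in place of 8.

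Leaving out 1 array gave 3 to 6 for the tissue difference at day 1, 0 to 4 at day 3, 1 to 4 from day 1 to day 7 in the cerebrum and 5 to 12 between controls. No paired analysis was possible because the labels give no replicate numbers. The deposited table holds no signal over background, so dim probes could not be set apart.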
